A study of Homo sapiens with 6 samples.

Results

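The semaphorins, their plexin and neuropilin receptors, the ephrins and the Eph receptors were followed in mitotic ERRAS cells with and without activated H-RasV12. Members were chosen by gene symbol (SEMA3 to SEMA7, PLXNA to PLXND, NRP1 and NRP2, EPHA and EPHB, EFNA and EFNB), and 58 of the 63129 listed genes matched. These 58 rows held 53 symbols, because 4 rows were copies of PLXNA3, PLXNB3, EPHB6 and SEMA3B on patch sequence, with 0 in every library, and EFNA3 had a second identifier. In all, 28 members had a mean of at least 1 FPKM (mapped fragments scaled to transcript length and library size, so that levels of different genes can be compared) over the 6 libraries and were tested, among 13993 genes tested in all. They comprised 12 semaphorins, 2 neuropilins, 7 plexins, 3 ephrins and 4 Eph receptors.

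ERRAS cells are IMR90 cells, primary fibroblasts of human foetal lung, that stably carry a fusion of oncogenic H-RasV12 with the ligand-binding part of the estrogen receptor, so that tamoxifen activates Ras. Poly(A) RNA was sequenced from 3 libraries of uninduced cells and 3 libraries of cells induced for 4 days with 100 nM tamoxifen. The dose is that of the labels, and the methods give it as a weight of 4-hydroxytamoxifen per volume, so the exact dose is uncertain. Uninduced cells carried the same construct and the same G418 selection, and both groups were grown at low oxygen and arrested in mitosis with 1 µM Dimethylenastron (DME), an inhibitor of the mitotic kinesin Eg5, before the loosened mitotic cells were collected. The construct came from a single retroviral vector, no unsynchronized cells or cells without the construct were compared here, and the methods describe the replicates as independent repeats of the experiment.

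Semaphorins are secreted or membrane-bound guidance proteins that signal mainly through plexins. Most secreted class 3 semaphorins need a neuropilin as co-receptor, whereas class 7 has a lipid anchor and also binds a beta1 integrin. Ephrins are membrane-bound ligands of Eph receptor tyrosine kinases, and contact between cells carries signals in both directions. In fibroblasts both systems are known for control of adhesion, cell rounding and repulsion through the actin cytoskeleton.

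HRAS, whose reads can come from the resident gene or from the construct, rose from 1164 ± 20.3 to 1586 ± 226.5 FPKM (SD, n = 3 each), a difference of 0.44 on the log2(FPKM + 1) scale (SE 0.11, limma adjusted p = 0.0431). Relative depth, read from the smallest FPKM steps, lay between 0.849 and 1.17 times that of uninduced library 1, and absolute depth is unknown. All 12 fibroblast markers were above 1 FPKM, with sums of 6136 to 7266 FPKM in uninduced and 4658 to 6164 in induced libraries, and 4 of them fell. Of 8 mitotic markers 4 fell, with sums of 1799 to 1865 against 1476 to 1627. Sums over 8 markers each were 24.6 to 38.9 against 23.6 to 27.8 for epithelial cells, with none altered, 17.7 to 22.0 against 9.56 to 11.8 for endothelial cells, 4.57 to 6.54 against 7.70 to 10.1 for neural cells, and at most 0.712 for blood cells. The endothelial marker ERG was at 0 in every library and CDH5 reached at most 0.0353 FPKM. PECAM1 was also listed at 0, but its row had no coordinates, as for the patch copies, so this 0 does not show absence. Single genes carried the last shifts: TEK fell from 15.3 ± 1.03 to 4.93 ± 0.310 FPKM while TIE1 rose from 1.37 ± 0.865 to 4.50 ± 1.52, and SYT1, the 1 neural marker tested, rose from 4.73 ± 0.424 to 8.97 ± 1.43 (SD, n = 3, all called by limma). The part of these shifts in the results was not tested, and in bulk RNA fewer cells of a type and less RNA per cell cannot be told apart. Among the 28 members, uninduced library 3 held the highest value of its group for 19 and induced library 3 for 18, whereas among all tested genes these libraries were highest for 31.0% and 27.2%.

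Between induced and uninduced cells 4 of the 28 tested members were altered, which were semaphorins in the fit as reported (adjusted p at or under 0.05, limma on log2(FPKM + 1)). Effects of tamoxifen and of activated Ras cannot be told apart in this comparison. SEMA7A and SEMA3A were higher, and SEMA3B and SEMA3F were lower. The share altered was 14.3% of members, beside 16.7% of all tested genes (11.0% higher and 5.67% lower), so the family as a whole was altered about as often as other genes. With quantile normalization the split of members was 1 higher and 3 lower, and with upper-quartile scaling 1 higher and 4 lower, with SEMA3A lost and EPHB4 gained in both and PLXNB1 gained in the latter, settings that also bring the median difference of all genes, 0.10 as deposited, close to 0. Without 1 library the count was 1 to 5, with 1 without uninduced library 2 or induced library 3. The groups did not overlap for 12 members (42.9%, beside 39.9% of all tested genes). Of these, 5 were higher and 7 lower in induced cells, beside 27.1% and 12.8% of all tested genes. The median difference was -0.09 over members and 0.10 over all tested genes. SEMA3B passed the minimum of 1 FPKM through its uninduced libraries only. At that minimum, SEMA4D had a mean of 1.17 FPKM just inside and EFNA5 0.966 just outside.

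**Figure D1:**
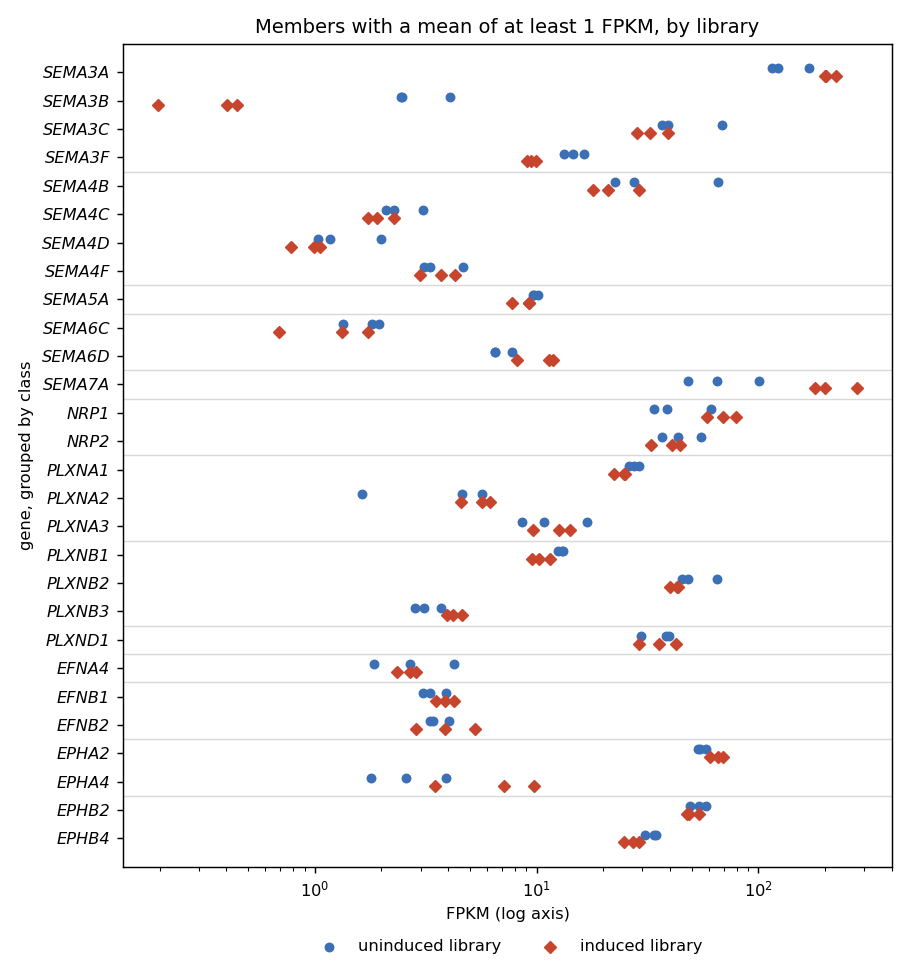
FPKM (log axis) of the 28 tested members in each of the 3 uninduced libraries (blue circles) and 3 induced libraries (red diamonds), with grey lines between classes. SEMA3A and SEMA7A lie to the right in induced cells, SEMA3B and SEMA3F to the left, and most plexin and Eph values of the 2 groups lie close together.

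**Figure D2:**
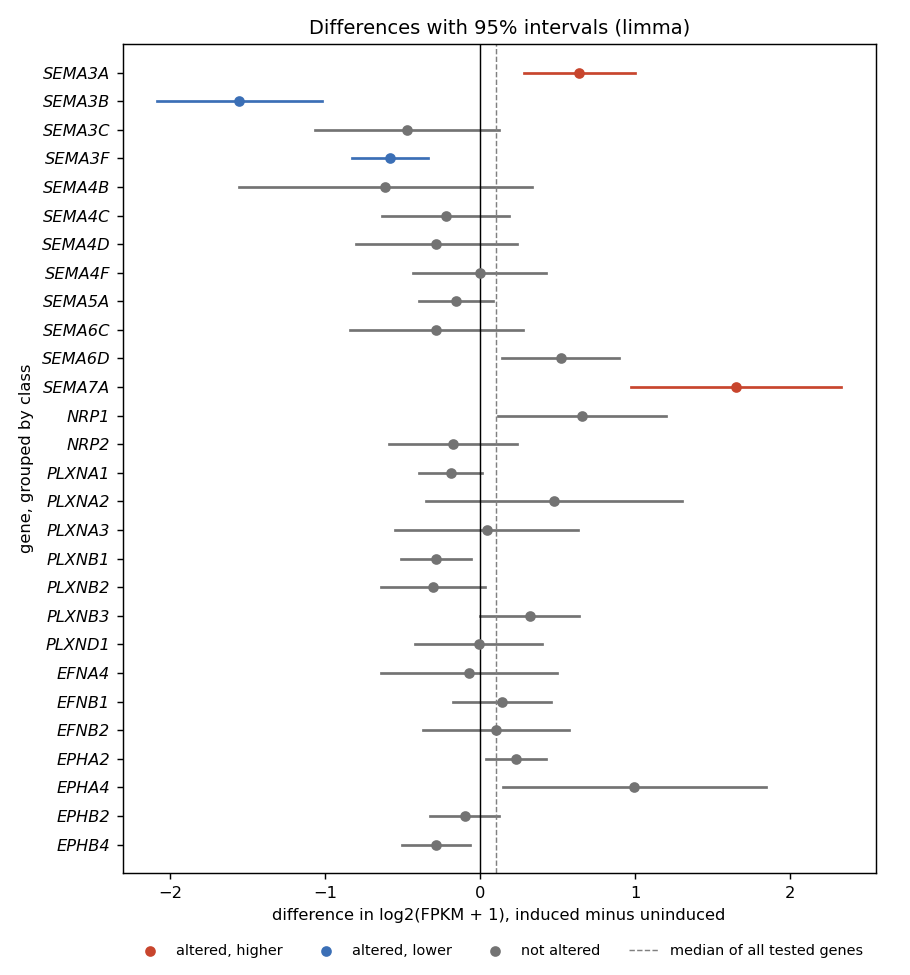
Difference in log2(FPKM + 1), induced minus uninduced, of each tested member with its 95% interval from limma. The 4 altered members are coloured, and the dashed line marks the median of all tested genes, 0.10.

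SEMA7A, the lipid-anchored semaphorin also known as a blood group antigen, had the largest rise of any member. It stood at 48.3, 64.9 and 100.5 FPKM in the uninduced libraries and at 180.4, 199 and 279 in the induced libraries. Every induced library was above every uninduced library, and the uninduced libraries were widely spread. The group means were 71.2 ± 26.7 and 219.7 ± 52.6 FPKM (SD, n = 3), a 3.08-fold rise with a difference of 1.65 (SE 0.28, 95% interval 0.97 to 2.33, limma adjusted p = 0.0133). The adjusted p was 0.0682 without uninduced library 2 and 0.0598 without induced library 3. PLXNC1, the plexin known to bind SEMA7A, lay between 0.0204 and 0.193 FPKM over the 6 libraries, and the other known partner, an integrin of the alpha1 and beta1 subunits, is described with the signalling partners.

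SEMA3A, a secreted repellent that collapses growth cones through NRP1 and A plexins, was the most abundant member in uninduced cells. Its levels were 122, 115 and 168 FPKM in uninduced and 199, 202 and 224 in induced libraries. The groups did not overlap, and the induced libraries lay closer to each other than the uninduced ones did. The rise from 135 ± 28.9 to 208 ± 14.1 FPKM (SD, n = 3) was 1.54-fold, with a difference of 0.64 (SE 0.15, 95% interval 0.28 to 1.00, limma adjusted p = 0.0342). This call held in 4 of 13 alternative fits, the fewest of the 4 altered members. The adjusted p was 0.0568 with quantile normalization, 0.0824 with upper-quartile scaling, 0.0878 with no filter and 0.0503 without a variance trend. It was 0.0862 to 0.122 when any library other than uninduced library 3 was left out, and 0.0118 without that library.

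SEMA3B and SEMA3F, secreted semaphorins of the same class known as candidate tumor suppressors of the short arm of chromosome 3, both fell. SEMA3B stood at 2.46, 2.48 and 4.08 FPKM in uninduced and at 0.402, 0.196 and 0.447 in induced libraries. No induced library came near the uninduced range. Its mean was 8.63-fold lower in induced cells (3.01 ± 0.928 against 0.348 ± 0.134 FPKM, SD, n = 3), with a difference of -1.55 (SE 0.22, 95% interval -2.08 to -1.02, limma adjusted p = 0.00802). With a pseudocount of 0.1 in place of 1 the difference of SEMA3B was -2.80, because the pseudocount weighs on levels this low. SEMA3F, which acts mainly through NRP2, stood at 16.4, 14.6 and 13.3 FPKM in uninduced and 9.06, 9.95 and 9.49 in induced libraries. Here too the groups were apart, and the induced libraries varied little. The mean of SEMA3F was 1.55-fold lower (14.8 ± 1.56 against 9.50 ± 0.447 FPKM, SD, n = 3), with a difference of -0.58 (SE 0.10, 95% interval -0.83 to -0.34, limma adjusted p = 0.0145). SEMA3B was called in every alternative fit that held it, whereas the adjusted p of SEMA3F was 0.0565 without uninduced library 1, 0.0692 without uninduced library 2, 0.0623 without induced library 1 and 0.0652 without induced library 3.

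**Figure D3:**
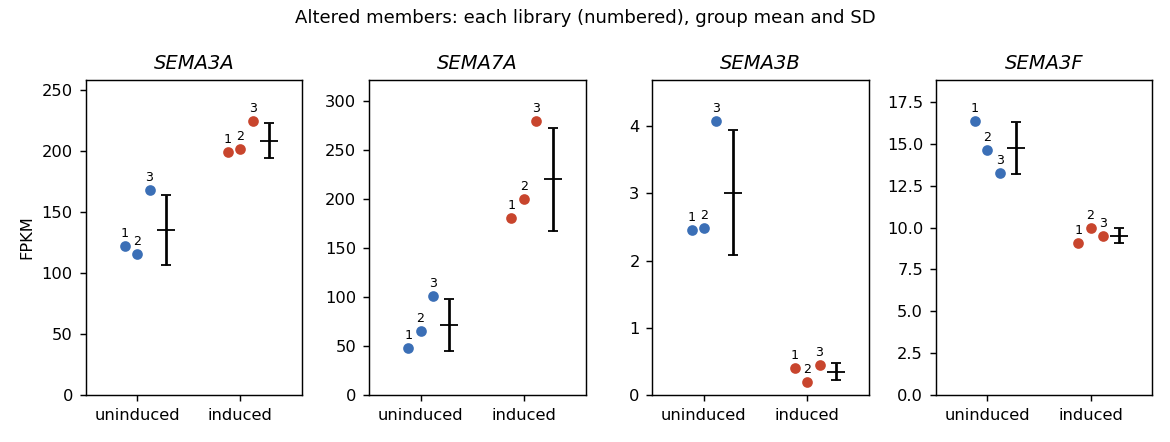
FPKM of SEMA3A, SEMA7A, SEMA3B and SEMA3F in each library (numbered points), with the group mean and SD in black and a separate axis from 0 for each gene. SEMA7A goes from 48.3 to 100.5 FPKM in uninduced libraries to 180.4 to 279 in induced libraries, and SEMA3B from 2.46 to 4.08 down to 0.196 to 0.447.

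SEMA3F (chr3:50192478-50226508) and SEMA3B (chr3:50304990-50314977, both plus strand, GRCh37) are the members nearest to each other on chromosome 3, with 78.5 kb between them, and both fell. Other genes in this interval were not looked at. SEMA3A (chr7:83585093-84122040, minus strand) has SEMA3E and SEMA3D as its nearest members, at distances of 306.6 kb and 502.8 kb. Both were under the mean needed for a test. SEMA3E was at 0.204 to 0.516 FPKM in uninduced and 0.00521 to 0.132 in induced libraries, and SEMA3D at 0.958 to 1.04 and 0.383 to 0.796. Both were lower in every induced library, as were the untested members EPHA3, EPHB3 and SEMA6A on other chromosomes. The share of all untested genes with groups apart was not computed. SEMA7A lies at chr15:74701630-74726299 on the minus strand. The library kit keeps no strand, so reads of the antisense genes SEMA3B-AS1 (0 to 0.600 FPKM) and SEMA3F-AS1 (0.113 to 0.328 FPKM) cannot be told from those of their partners.

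Promoter windows, from 250 bases before to 50 after an annotated start, were taken from RefSeq on GRCh38.p14. Of the 28 tested members 26 had a window, 41 windows in all, and SEMA3A and NRP1 had none. The altered members with a window are shown, by the most upstream start of each: SEMA3B at chr3:50259976-50260275 (plus strand), SEMA3F at chr3:50154808-50155107 (plus strand) and SEMA7A at chr15:74433909-74434208 (minus strand), each written 5′ to 3′ in the direction of transcription. Capitals mark the cyclic AMP response element (CRE) letters TGACGTCA, which begin 31 bases before this SEMA3B start.
SEMA3B: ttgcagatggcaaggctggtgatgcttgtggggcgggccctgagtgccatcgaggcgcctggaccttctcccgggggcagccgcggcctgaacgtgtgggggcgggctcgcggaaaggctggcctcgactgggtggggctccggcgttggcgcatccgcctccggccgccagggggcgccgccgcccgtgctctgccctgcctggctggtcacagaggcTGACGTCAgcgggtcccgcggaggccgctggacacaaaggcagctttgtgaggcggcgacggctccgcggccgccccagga
SEMA3F: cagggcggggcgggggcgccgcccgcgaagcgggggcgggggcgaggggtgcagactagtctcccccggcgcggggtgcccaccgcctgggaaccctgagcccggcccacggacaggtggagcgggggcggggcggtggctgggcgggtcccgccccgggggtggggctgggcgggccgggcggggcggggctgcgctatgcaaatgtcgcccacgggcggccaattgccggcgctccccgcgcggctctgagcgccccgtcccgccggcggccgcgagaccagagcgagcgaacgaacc
SEMA7A: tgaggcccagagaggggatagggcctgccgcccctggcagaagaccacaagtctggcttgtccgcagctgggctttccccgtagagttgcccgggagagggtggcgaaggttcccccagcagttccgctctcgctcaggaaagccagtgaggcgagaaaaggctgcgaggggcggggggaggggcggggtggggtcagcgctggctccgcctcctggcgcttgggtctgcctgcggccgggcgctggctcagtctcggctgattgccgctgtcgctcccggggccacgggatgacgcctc

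Both strands of each window were searched for these CRE letters, for the AP-1 letters TGANTCA and for the ETS letters CCGGAAGT, chosen after values were known. The CRE letters were in 3 of the 41 windows (7.32%), 1 each of SEMA3B, EPHA2 and SEMA4C, beside 1.85% of all 35116 RefSeq windows. SEMA3B had 4 other windows, and none of them held these letters. Of these 3 genes, SEMA3B was called lower, and EPHA2 (difference 0.23 in log2(FPKM + 1)) and SEMA4C (difference -0.22) were not called. Neither the AP-1 letters, in 7.71% of all windows, nor the ETS letters, in 4.14%, were in a member's window. The SEMA3F and SEMA7A windows shown hold none of these letters. A match is a stretch of letters only, and binding was not measured.

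Within class 3 the make-up shifted towards SEMA3A. The class summed to 202 ± 46.3 FPKM in uninduced and 252 ± 19.1 in induced libraries (SD, n = 3). SEMA3A made up 67.2, 67.7 and 65.8% of that sum in the uninduced libraries and 83.6, 82.4 and 82.0% in the induced libraries. These shares did not overlap between groups, and they were chosen after values were seen and not tested. The share of SEMA3C, a secreted semaphorin known from heart outflow tract development, went from 23.3 ± 3.06% to 13.2 ± 1.14%, and that of SEMA3F from 7.60 ± 2.10% to 3.78 ± 0.302%. SEMA3C itself lay at 36.6 to 68.7 FPKM in uninduced and 28.4 to 38.9 in induced libraries, and its difference of -0.47 (95% interval -1.07 to 0.12) was not called (limma adjusted p = 0.234) and was -0.19 without uninduced library 3.

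**Figure D4:**
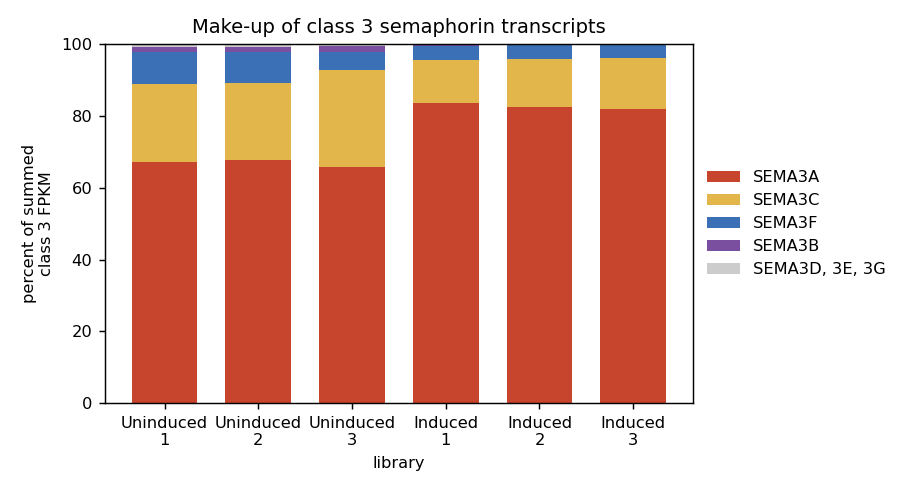
Percent of the summed class 3 semaphorin FPKM taken by each gene in each library, as stacked bars that reach 100. SEMA3A takes 65.8 to 67.7% in the uninduced libraries and 82.0 to 83.6% in the induced libraries.

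Among the membrane-bound semaphorins of classes 4, 5 and 6, none of 7 tested members was called, beside 16.7% of all tested genes. SEMA4B, the most abundant of class 4, was at 27.4, 22.6 and 65.9 FPKM in uninduced and 21.0, 17.9 and 29.0 in induced libraries. Uninduced library 3 stood far above the other libraries, and the groups overlapped (difference -0.61, 95% interval -1.56 to 0.33, limma adjusted p = 0.326). Without that library the difference was -0.16. SEMA4C (1.74 to 3.08 FPKM over all libraries), SEMA4D (0.780 to 1.98), a ligand of PLXNB1, and SEMA4F (2.99 to 4.66) overlapped as well. SEMA5A, a semaphorin with thrombospondin repeats, was at 9.59, 9.74 and 10.1 FPKM against 9.27, 7.73 and 9.21. The groups were apart by little, with a difference of -0.16 (95% interval -0.40 to 0.09, limma adjusted p = 0.330), or -0.08 without induced library 2 and -0.25 with quantile normalization. SEMA6D, a ligand of PLXNA1, was at 7.78, 6.50 and 6.47 FPKM in uninduced and 11.3, 8.13 and 11.9 in induced libraries. All induced libraries were higher, yet the difference of 0.52 (95% interval 0.14 to 0.90) missed the threshold (limma adjusted p = 0.0680), and without induced library 2 it was 0.68 (adjusted p = 0.0350). SEMA6C lay between 0.692 and 1.96 FPKM and overlapped.

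The neuropilins, co-receptors of class 3, differed in direction but neither was called. NRP1, the SEMA3A co-receptor, was at 33.7, 38.6 and 61.2 FPKM in uninduced and 68.9, 58.9 and 79.0 in induced libraries. Uninduced library 3 was above induced library 2, the single overlap. The difference was 0.66 (95% interval 0.11 to 1.20, limma adjusted p = 0.0959), and without uninduced library 3 it was 0.91 (adjusted p = 0.0255). NRP2 was at 36.7 to 54.8 FPKM against 32.9 to 44.5 (difference -0.18, 95% interval -0.59 to 0.24, adjusted p = 0.512), and without uninduced library 3 its difference was -0.03, while with upper-quartile scaling it was -0.28. The ratio of NRP1 to NRP2 within each library was 0.918, 0.891 and 1.12 in uninduced and 1.68, 1.79 and 1.77 in induced cells. These ratios did not overlap, but they were chosen after values were seen and were not tested. A gene on the opposite strand of NRP1 (RP11-342D11.2, ENSG00000238258) was listed at 8.65, 10.1 and 17.6 FPKM in uninduced and 19.3, 13.6 and 23.4 in induced libraries. Without strand its reads and those of NRP1 cannot be told apart.

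None of the 7 tested plexins was called, beside 16.7% of all tested genes, a share at which a count of 0 in so few genes says little. PLXNB2, PLXND1 and PLXNA1 together made up 78.2 ± 0.479% of summed plexin FPKM in uninduced and 75.8 ± 2.72% in induced libraries. PLXNA1, a receptor component for SEMA3A, was at 26.1, 27.6 and 28.8 FPKM in uninduced and 24.7, 22.2 and 25.0 in induced libraries. Every induced library was lower, but the difference was only -0.19 (95% interval -0.39 to 0.01, limma adjusted p = 0.167), or -0.30 with quantile normalization. PLXNA2 stood at 1.63 to 5.65 FPKM against 4.54 to 6.18, its lowest value in uninduced library 3, and PLXNA3 at 8.56 to 16.8 against 9.66 to 14.1. PLXNA3 overlaps LAGE3 on the opposite strand, listed at 7.71 to 13.7 FPKM.

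The B plexins had no overlap between groups for any of the 3, beside 39.9% of all tested genes. PLXNB2 was at 45.3, 48.3 and 64.8 FPKM in uninduced and 43.0, 39.8 and 43.3 in induced libraries. The gap between the groups was narrow, and the difference was -0.31 (95% interval -0.64 to 0.03, limma adjusted p = 0.180), or -0.15 without uninduced library 3. PLXNB1, at 12.5 to 13.2 against 9.55 to 11.5 FPKM, was lower by a like amount (difference -0.28, 95% interval -0.51 to -0.06, adjusted p = 0.0890), and it was called with upper-quartile scaling (adjusted p = 0.0465). PLXNB3 went the other way, with 2.84 to 3.71 against 3.93 to 4.61 FPKM (difference 0.32, 95% interval 0.00 to 0.64, adjusted p = 0.147). PLXND1, a receptor of SEMA3E best known from blood vessels, was at 38.4, 39.6 and 29.6 FPKM against 35.7, 42.7 and 28.9. The induced range enclosed the uninduced one, and the difference was -0.01 (95% interval -0.42 to 0.40, adjusted p = 0.976), or -0.13 with quantile normalization.

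The Eph receptors were far more abundant than their ephrin ligands. Summed receptors reached 141 to 154 FPKM in uninduced and 148 to 159 in induced libraries, and summed ephrins 9.52 to 13.0 and 9.30 to 13.0. The ratio of the sums was 13.4 ± 1.55 in uninduced and 13.4 ± 3.23 in induced cells (SD, n = 3). Of the ligands, EFNA4, which has a lipid anchor, was at 1.86, 2.68 and 4.26 FPKM in uninduced and 2.86, 2.35 and 2.68 in induced libraries. It overlapped entirely. Its reads can be split with the EFNA4-EFNA3 readthrough gene, which was listed at no more than 1.08e-16 FPKM in any library. EFNB2, the transmembrane ligand of EPHB4, was at 3.42, 3.32 and 4.02 FPKM against 3.88, 2.85 and 5.27. The induced range enclosed the uninduced one, with a difference of 0.10 (95% interval -0.37 to 0.57, limma adjusted p = 0.755), or 0.01 with either scaling. EFNB1 lay between 3.08 and 4.24 FPKM over all libraries (adjusted p = 0.488).

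EPHA2, EPHB2 and EPHB4 accounted for 95.9 ± 1.06% of summed Eph receptor FPKM in uninduced and 92.9 ± 2.25% in induced libraries. EPHA2, a receptor of epithelial and tumor cells, was at 54.6, 53.3 and 58.2 FPKM in uninduced and 60.5, 69.0 and 65.8 in induced libraries. All induced libraries were higher, by a small difference of 0.23 (95% interval 0.04 to 0.42) that was not called (limma adjusted p = 0.101) and was 0.13 with quantile normalization and 0.12 with upper-quartile scaling. EPHB2 was at 49.4, 58.2 and 53.7 FPKM against 47.6, 54.2 and 48.4. Its groups overlapped, with a difference of -0.10 (95% interval -0.32 to 0.12, adjusted p = 0.491), which ranged from -0.21 with upper-quartile scaling to -0.04 without uninduced library 2. EPHB4, a receptor known from veins, was at 30.8 to 34.6 FPKM in uninduced and 24.8 to 29.0 in induced libraries (difference -0.28, 95% interval -0.50 to -0.07, adjusted p = 0.0794). The groups were apart, and the adjusted p was 0.0397 with quantile normalization and 0.0401 with upper-quartile scaling. EPHB4 overlaps SLC12A9 on the opposite strand, listed at 10.7 to 15.9 FPKM.

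EPHA4, which binds ephrins of both types and signals to chimaerins, had the largest difference of any Eph receptor but also the widest interval. It lay at 1.80 to 3.90 FPKM in uninduced and 3.47 to 9.70 in induced libraries, with a difference of 0.99 (95% interval 0.15 to 1.84, limma adjusted p = 0.104). Without induced library 2, the lowest of its group, the difference was 1.35 (adjusted p = 0.0485). The summed EphA receptors were 59.4 ± 3.88 FPKM in uninduced and 73.8 ± 3.33 in induced libraries, with no overlap, and the summed EphB receptors 88.9 ± 5.70 and 79.3 ± 5.19, with overlap. The difference of 14.4 FPKM in the EphA sum was 9.26 with upper-quartile scaling, and that of -9.62 in the EphB sum was -16.2. None of the 7 tested Eph receptors and ephrins was called, beside 16.7% of all tested genes.

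The other 25 symbols had a mean under 1 FPKM and were not tested. Of these SEMA4G (0.235 to 1.75 FPKM), EPHA5 (0.311 to 1.68), EFNA5 (0.531 to 1.53), EPHB1 (0.262 to 1.17), EPHB6 (0.542 to 1.10) and SEMA3D reached 1 FPKM in at least 1 library. EPHA1 (0.340 to 0.819), EPHB3 (0.142 to 0.763), SEMA6B (0.178 to 0.587), SEMA3E, EFNA3 (0 to 0.454) and SEMA6A (0.113 to 0.442) stayed lower. PLXNA4 (0.0207 to 0.224), SEMA4A (0.0444 to 0.206), EFNA1 (0 to 0.199), PLXNC1, EFNB3 (0.0481 to 0.150) and EPHA3 (0.0114 to 0.112) were lower still. EPHA10 (0 to 0.0696), EFNA2 (0 to 0.0538), SEMA3G (0 to 0.0233) and EPHA7 (0 to 0.0172) were at 0 in some libraries. SEMA5B, EPHA6 and EPHA8 were listed at 0 throughout.

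Of 63 genes that act with these receptors (co-receptors, adaptors, kinases and other signalling proteins), 56 were tested, with 3 higher and 6 lower. The share altered was 16.1%, beside 16.7% of all tested genes, and the median difference was -0.02 beside 0.10. With quantile normalization 2 were higher and 9 lower, with upper-quartile scaling 2 and 10, and 13 were altered without uninduced library 3 but only 1 to 3 without any other library. The largest rise was in CHN1, a chimaerin that acts below EPHA4, which stood at 68.8, 79.2 and 70.5 FPKM in uninduced and 183.8, 191 and 138 in induced libraries. All induced libraries were far above the uninduced ones (difference 1.21, SE 0.14, limma adjusted p = 0.00412). LIMK1, a kinase of the actin-severing protein cofilin, rose from 31.1 ± 0.197 to 40.2 ± 3.24 FPKM (limma adjusted p = 0.0331). CHN1 was called in every alternative fit. LIMK1 was not called with quantile normalization, upper-quartile scaling, no filter or no variance trend, nor without any library other than induced library 3.

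The largest fall was in ITGA1, the alpha1 integrin subunit through which SEMA7A can act. It stood at 60.5, 57.7 and 33.2 FPKM in uninduced and 21.2, 23.3 and 10.4 in induced libraries. The groups did not overlap (difference -1.44, SE 0.35, limma adjusted p = 0.0356), but ITGA1 was not called with no filter or without any library other than uninduced library 3. Its partner subunit ITGB1 was at 840.3 to 984 FPKM in uninduced and 653 to 761 in induced libraries, with no overlap, and was not called (limma adjusted p = 0.0638). ITGB1 was called with the 5 FPKM filter, with quantile normalization and with upper-quartile scaling. ERBB2, a receptor tyrosine kinase that associates with B plexins, fell from 18.0 ± 3.96 to 8.68 ± 0.979 FPKM (adjusted p = 0.0142), a call lost without library 2 of either group or induced library 3. FARP1, an exchange factor related to one bound by A plexins, fell from 133.2 ± 20.6 to 82.7 ± 13.2 FPKM (adjusted p = 0.0335), a call lost in the same fits as that of ITGA1. The other falls were in ROCK2, RRAS2 and RASA1, named after their values were seen.

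**Figure D5:**
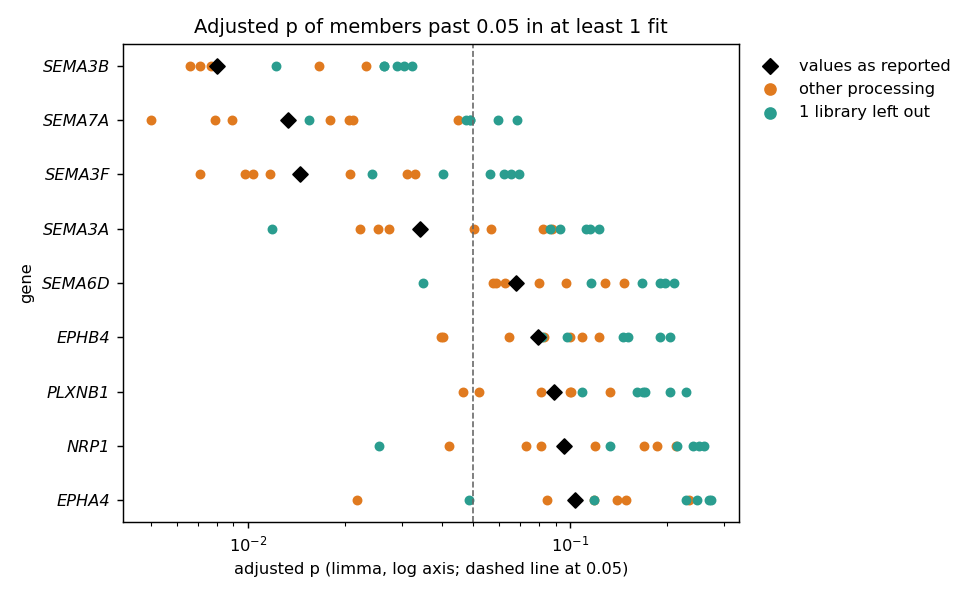
Adjusted p (limma, log axis) of the 9 members past 0.05 in at least 1 fit, with the reported values as black diamonds, other processing in orange and fits without 1 library in green. SEMA3B stays left of the dashed line at 0.05 in every fit, and SEMA7A, SEMA3F and SEMA3A cross it in some fits, whereas SEMA6D, EPHB4, PLXNB1, NRP1 and EPHA4 reach it in 1 or 2 fits each.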

How the data were processed

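The authors aligned paired-end reads to hg19 with TopHat2 and Ensembl build 73 junctions, after Trim Galore 0.3.0, and deposited FPKM values from Cufflinks, 1 column for each library. Columns name the group and a number but not the sample. The 120 rows with more than 6 values, none a member, and 18 unnamed columns were left out. The deposited Cuffdiff table holds group FPKM, log2 fold change, a test score, p-values and q-values, and was not used for results. Because FPKM is not a count, limma 3.58.1 (R 4.3.3) was run on log2(FPKM + 1) for every gene whose mean reached 1 FPKM (mean-variance trend, two-sided, Benjamini-Hochberg over 13993 genes), which understates changes of low genes. The fit was tested on simulated data. Every tested member is named, the altered ones and the top of each class with every library. Of the partners, the 3 largest rises and falls are named, except 1 rise not reported here. The members and lists were chosen with earlier results of these data known. Coordinates are from GENCODE 44 on GRCh37 and promoter windows from RefSeq on GRCh38.p14. Alternatives were another pseudocount (0.1), filter (none, or 5 FPKM) and scaling, no trend, a replicate block, an added minimum difference and leaving out each library.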

Additional observations from a re-analysis of the deposited data

How the results depend on the processing

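Of 353 alternative fits of the 28 members, 318 kept the direction and the side of the threshold, 15 lost a call, 8 gained one and 12 reversed, in 5 genes. The number of members altered was 4, and 2 (SEMA3B and SEMA7A) when a difference of at least 1 was also required. It was 1 to 5 when a library was left out: 5 without uninduced library 3 or induced library 2, 2 without library 1 of either group, and 1 without uninduced library 2 or induced library 3. The partners altered were 9, then 4 with no filter and 1 to 13 without a library. All genes altered were 2336, then 1518 with no filter, 548 with the minimum difference and 860 to 1872 without a library, the highest of these without uninduced library 3. With quantile normalization 1044 genes were higher and 1109 lower, and with upper-quartile scaling 921 and 1101, in place of 1543 and 793. With that scaling the differences in summed FPKM were 9.26 for EphA receptors, -16.2 for EphB receptors and -1.79 for class 5 semaphorins, in place of 14.4, -9.62 and -1.08. The reversed differences lay near 0. PLXNA3 was -0.061 with quantile normalization and -0.059 with upper-quartile scaling. Without a library PLXNA3 ranged from -0.16 to 0.29, PLXND1 from -0.14 to 0.13, SEMA4F from -0.10 to 0.14, EFNA4 from -0.28 to 0.16 and EFNB2 from -0.077 to 0.27.

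Replicate numbers were shared between groups, but deviations of same-numbered libraries correlated at -0.00266, 0.0433 and 0.0481, so they were not taken to pair the libraries. With the replicate block 6 members, 11 partners and 2310 genes in all were called, EPHA4 (adjusted p = 0.0217) and NRP1 (adjusted p = 0.0419) joining the 4. The cause of these changes was not tested. The depth in reads is unknown.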
